A study of Mus musculus with 4 samples.

Results

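Genes of myelin and mature oligodendrocytes were followed across single nuclei of cortex from GCLC-KO mice. The set held 9 of the 32285 genes counted, taken by symbol: Mbp, Mog, Mag, Mobp, Cnp, Opalin, Cldn11, Myrf and St18. Their unique molecular identifiers (UMIs, each 1 captured transcript) were summed per library in oligodendrocytes and in every other class of nuclei.

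Single-nucleus RNA sequencing had been done on 4 libraries, each labelled as from 1 mouse, with 2 mice taken at the age of 3 months and 2 at 6 months. A library is named by age and replicate, so that 3M-2 is the second of the 3-month mice. Where 4 values are given in a row, the 3-month libraries come first and then the 6-month ones, each pair by replicate number. All 4 mice were GCLC-KO, a cross of mice with a floxed Gclc (strain C57BL/6NTac-Gclctm1a(EUCOMM)Wtsi/WtsiCnbc) and CaMKII-Cre mice, in which Cre is driven in neurons. Gclc encodes the catalytic subunit of the enzyme that limits glutathione synthesis. The titles give each library a replicate number, 1 or 2, and name no processing batch. The batch number used here equals the replicate number at both ages. The labels name no treatment, and the tissue was taken from cortical regions rich in rod-shaped microglia. No wild-type library was analysed here, so every comparison was between ages or between classes of nuclei within the knockout.

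Myelin is the many-layered membrane that oligodendrocytes wrap around axons, and it lets impulses travel fast and supports the axon. Compact myelin is glued at its cytoplasmic faces by basic proteins, non-compact myelin holds the enzymes and adhesion proteins that face the axon, and tight junctions seal its edges. Oligodendrocytes arise from oligodendrocyte progenitor cells (OPCs), and the switch to the mature cell is driven by transcription factors that turn the myelin genes on together.

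Among the members, Mbp (myelin basic protein) and Mobp (myelin-associated oligodendrocyte basic protein) encode basic proteins of compact myelin. Mog and Mag encode adhesion proteins of the immunoglobulin family, at the outer face of the sheath and at the side facing the axon. Cnp encodes a phosphodiesterase of the cytoplasmic channels of myelin, Cldn11 the claudin of its tight junctions and Opalin a membrane protein of mature oligodendrocytes. Myrf and St18 encode transcription factors; Myrf is required for the expression of myelin genes. On the mouse assembly GRCm38 (GENCODE M21), Mog lies at chr17:37010743-37023398 on the minus strand, Mag at chr7:30899176-30914873 on the minus strand, Mobp at chr9:120149707-120181484 on the plus strand and Cnp at chr11:100574904-100591729 on the plus strand. Opalin lies at chr19:41061710-41077113 on the minus strand, Cldn11 at chr3:31149920-31164324 on the plus strand, Myrf at chr19:10208272-10240748 on the minus strand and St18 at chr1:6487231-6860940 on the plus strand. Cnp overlaps Dnajc7 on the opposite strand, so its counts are uncertain where strand was not used in counting.

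RefSeq promoter windows (GRCm38.p6, 300 bases around the start) were found for 6 of the 9 genes; Mbp, Myrf and St18 had no entry. Since myelin genes are known to be turned on together, the windows were searched on both strands for core letters. These were ACAAAG for SOX factors such as Sox10 and CTGGNAC, with N any base, for the Myrf protein. Matches to the SOX and MYRF letters overlapped 0 times. Which forms of CTGGNAC the Myrf protein binds was not tested. The SOX letters stood in 5 of the 8 windows of these genes and in 18.7% of all 32851 promoters, and the MYRF letters in 5 of the 8 windows and in 19.3% of all promoters. The 5 windows belonged to 4 genes in each case, since 2 overlapping windows of Mag held both. The windows of Mag (chr7:30914814-30915113, minus strand), Cnp (chr11:100574689-100574988, plus strand) and Opalin (chr19:41077064-41077363, minus strand) are shown because they hold both motifs, in capitals. That of Mobp (chr9:120149492-120149791, plus strand) is shown because it holds the SOX letters 6 times, where 0.198% of all promoters hold them 3 times or more. A match is a description of the letters and not a bound site.
Mag: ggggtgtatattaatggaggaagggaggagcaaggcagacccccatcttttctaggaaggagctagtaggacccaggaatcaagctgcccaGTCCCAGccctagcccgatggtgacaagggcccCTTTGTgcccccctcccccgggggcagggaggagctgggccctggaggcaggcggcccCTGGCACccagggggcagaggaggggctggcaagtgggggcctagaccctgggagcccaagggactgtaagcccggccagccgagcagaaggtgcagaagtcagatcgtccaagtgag
Cnp: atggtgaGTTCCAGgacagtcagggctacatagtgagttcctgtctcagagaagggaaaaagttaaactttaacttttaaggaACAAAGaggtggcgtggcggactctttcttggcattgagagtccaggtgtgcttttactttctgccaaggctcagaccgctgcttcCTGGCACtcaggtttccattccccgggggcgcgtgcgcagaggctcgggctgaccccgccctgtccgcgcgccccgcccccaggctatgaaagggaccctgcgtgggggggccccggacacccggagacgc
Opalin: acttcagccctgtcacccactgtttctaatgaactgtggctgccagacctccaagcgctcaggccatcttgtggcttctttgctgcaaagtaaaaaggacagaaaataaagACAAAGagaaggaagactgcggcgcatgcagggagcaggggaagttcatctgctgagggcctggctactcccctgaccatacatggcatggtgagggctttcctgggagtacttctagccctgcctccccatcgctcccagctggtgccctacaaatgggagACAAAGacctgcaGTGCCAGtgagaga
Mobp: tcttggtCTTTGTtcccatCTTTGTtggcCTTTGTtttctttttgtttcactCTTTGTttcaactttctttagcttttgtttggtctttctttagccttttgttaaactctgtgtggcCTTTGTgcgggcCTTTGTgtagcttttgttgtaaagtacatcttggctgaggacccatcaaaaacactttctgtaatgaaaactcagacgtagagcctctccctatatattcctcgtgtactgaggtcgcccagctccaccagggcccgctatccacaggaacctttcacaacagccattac
The window of Mog held the MYRF letters 1 time and no SOX letters, and that of Cldn11 held neither.

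After the filters that the authors used, 30515 nuclei were kept, 6802 to 8750 in a library, with 59262228 to 65894316 UMIs in a library. The median nucleus held 5994 UMIs in 3M-2 and 7035 to 8140 in the other libraries, so 3M-2 was the shallowest. Nuclei were placed in classes by lists of markers that hold none of the 9 members, and a nucleus with a marked second class was set aside. So defined, 4029 nuclei (13.2%) were oligodendrocyte-like, 10244 excitatory neuron-like, 1097 inhibitory neuron-like, 192 astrocyte-like, 2218 microglia-like and 910 OPC-like; they are named without "like" from here on. A further 48 vascular nuclei were too few to test, 10622 nuclei (34.8%) carried the markers of more than 1 class and 1155 carried too few markers. The libraries shared 12 to 19 barcodes in pairs. Gclc stood at 23.3 to 36.9 CPM (UMIs of a gene per 1e6 UMIs of the class) in oligodendrocytes and at 33.7 to 43.5 CPM in excitatory neurons. With counting at the 3' end and no wild-type library to set beside it, the deletion could not be measured.

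The nuclei in the oligodendrocyte gate were described by the marker lists and the members. The gate itself used the marker lists, so the marker counts are partly set by it and are no check of it. All 16 oligodendrocyte markers were found in every library, the median gated nucleus held 7 of them, and the median for every other list was 0. At least 1 excitatory marker was found in 49.8% of gated nuclei. For the other lists this share was 29.4% (astrocyte) or lower, down to 2.93% (vascular). Of the 10 genes that led the class over the other named classes, 4 were its markers (Prr5l, Sec14l5, Aspa, Hapln2), 3 were members (Mog, St18, Mobp) and 0 were markers of another class. Gated oligodendrocytes were shallow nuclei, with medians of 2830.5, 1670, 2007.5 and 2344 UMIs. At the edge of the gate, 115 nuclei had just 3 markers and 60% of them held a UMI of Mog, and the 24 left out with 2 markers held one in 58.3%. Scrublet called 264 to 689 nuclei of a library doublets, of which 1 to 4 were gated oligodendrocytes.

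Oligodendrocytes made up a larger share of the nuclei at 6 months in these libraries. The share was 12.0% (95% Wilson interval 11.2 to 12.8) and 8.75% (8.18 to 9.36) at 3 months, and 17.01% (16.2 to 17.8) and 15.6% (14.8 to 16.5) at 6 months. Both 6-month libraries were above both 3-month libraries, and the means were 10.4% ± 2.27 and 16.3% ± 0.999 (SD, n = 2 each). The difference of 5.95 percentage points had an exact permutation p of 0.333 (two-sided), which is the smallest that 2 against 2 libraries allow. Leaving out 1 library at a time gave 4.34 to 7.55 points. The intervals cover counting error only. A share of nuclei is relative: excitatory neurons were 33.2% and 40.6% of the nuclei at 3 months and 28.02% and 31.5% at 6 months.

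The 9 genes were abundant in oligodendrocytes of both ages. Together they took 13941, 13521, 13639 and 12575 CPM of the UMIs of oligodendrocytes, and the ages overlapped. The compact myelin gene Mbp stood at 5278 and 5045 CPM at 3 months and at 4959.8 and 4416 CPM at 6 months. Mobp stood at 1619.5 and 1540.3 CPM at 3 months and at 1757 and 1427 CPM at 6 months. Mbp was thus lower in both 6-month libraries, by a small part of its level, and the 6-month libraries of Mobp lay on either side of the 3-month ones.

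Of the adhesion genes, Mog stood at 1239 and 1040.1 CPM at 3 months and at 1013 and 952 CPM at 6 months, so both 6-month values were lower, the nearest by a small gap. Mag stood at 1050.3 and 1406 CPM at 3 months and at 1200.5 and 1142 CPM at 6 months, between the 3-month values. Cldn11 stood at 456 and 432 CPM at 3 months and at 382 and 416 CPM at 6 months, again without overlap. Opalin was the 1 gene with both 6-month values above both 3-month values, with 256 and 329 CPM at 3 months and 412 and 346 CPM at 6 months.

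Cnp had the widest spread, with 176 and 376 CPM at 3 months against 329.8 and 311 CPM at 6 months. The single low value was 3M-1, which was the lowest library for Cnp in 5 of 6 classes of nuclei. Among the transcription factors, Myrf stood at 207, 184, 214 and 199 CPM and St18 at 3659, 3170.4, 3371 and 3365 CPM. For both, the 6-month values lay inside or next to the 3-month range. The plot of levels in oligodendrocytes gives each value.

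**Figure D1:**
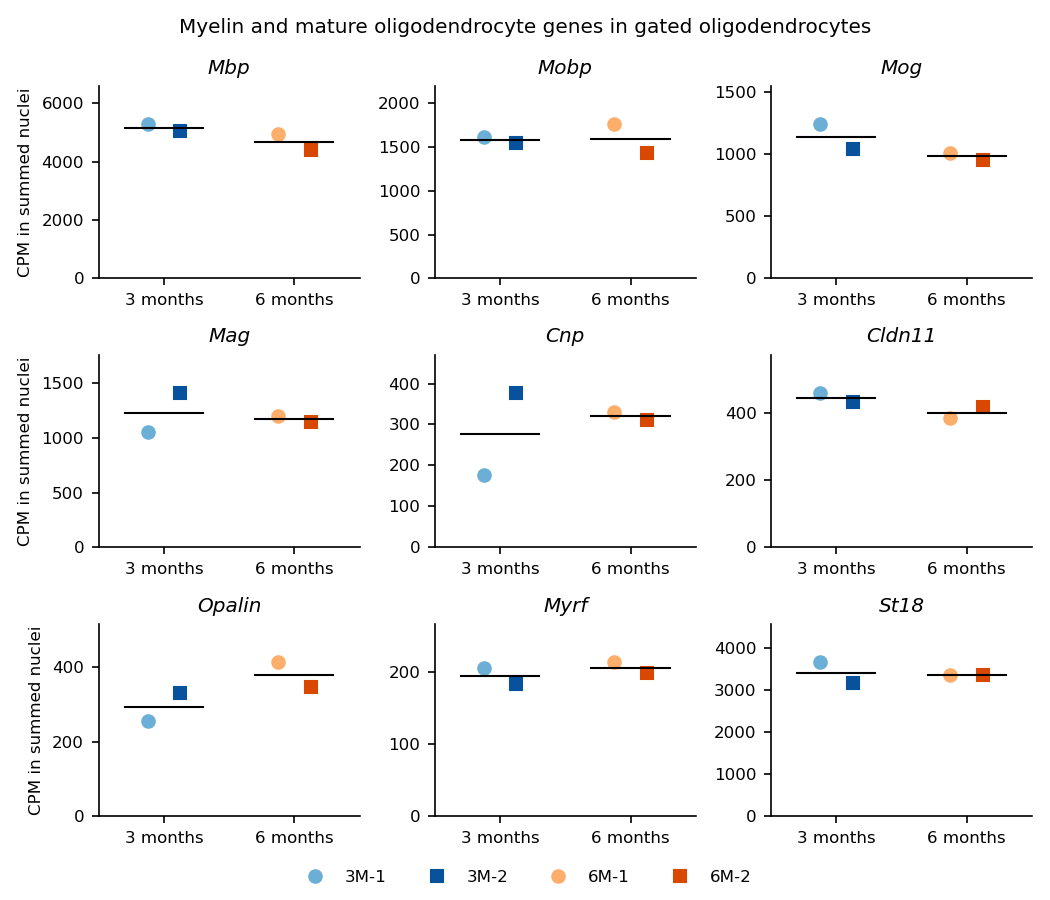
Level of each of the 9 genes in gated oligodendrocytes, in CPM of the summed nuclei (linear axis from 0), with 1 point per library and a bar at the mean of each age (n = 2). Mbp, Mog and Cldn11 are lower and Opalin is higher in both 6-month libraries, and Cnp is lowest in 3M-1 at 176 CPM.

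None of the 9 genes passed the test between ages in oligodendrocytes (edgeR quasi-likelihood test, Benjamini-Hochberg adjustment over 12178 genes), where 27 genes passed (0.222%), 22 of them higher at 6 months. At an unadjusted p under 0.05 there were 0 members among 977 genes (8.02%), and DESeq2 called 0 members among 40 genes. The largest differences were those of Opalin, with a log2 fold change of 0.30 (SE 0.183, 95% interval -0.10 to 0.70, edgeR adjusted p = 0.736), and Mog, with -0.30 (SE 0.178, -0.69 to 0.09, edgeR adjusted p = 0.730). Cldn11 was at -0.24, Mbp at -0.22, Mag at -0.14, St18 at -0.10, Mobp at -0.07 and Myrf at -0.01 on the log2 scale, with SEs of 0.166 to 0.179. Cnp was at 0.16 with an SE of 0.262. Mbp, Mog and Cldn11 were lower in both 6-month libraries, as were 12.1% of all genes tested, and Opalin was higher in both, as were 25.7%; the other 5 members overlapped. The median difference was -0.10 over the members and 0.01 over all genes. The intervals lay inside a 2-fold difference for all 9 genes. They rest on 2 libraries per age and on a spread that edgeR estimates partly from other genes. The 3-month libraries of Cnp alone ran from 176 to 376 CPM.

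Leaving out 1 library leaves 1 library at its age, so only effect sizes are given here for such fits between ages. Their counts of genes called are listed only where the dependence on the processing is described. Without the shallow library 3M-2, Cnp was at a log2 fold change of 0.71 and Mog at -0.49. Without 3M-1, Cnp was at -0.26. With the batch number as a block, 53 genes and 0 members passed. Markers of other classes were measured in the gated oligodendrocytes as well. The summed level of the 11 excitatory markers in oligodendrocytes ranged from 213 to 332 CPM at 3 months and from 299.7 to 369 CPM at 6 months, with all 11 found at both ages. The 11 inhibitory markers, all found, summed to 96.0 to 115 CPM and then to 169.6 to 188 CPM, and the 14 microglial markers, all found, to 104 to 109.7 CPM and then to 140.4 to 150.2 CPM. The astrocyte list summed to 151 to 181 CPM and then to 179 to 195 CPM. The OPC list summed to 100 to 144 CPM and then to 133 to 136 CPM, and the vascular list to 10.9 to 19.8 CPM and then to 13.2 to 18.2 CPM. The ages overlapped for the excitatory, astrocyte, OPC and vascular lists. Their part in the result was not tested.

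Other genes of the myelin programme were looked at in lists. Of 16 further genes of the sheath, 0 passed the test between ages in oligodendrocytes, with a median log2 fold change of -0.09 (range -0.48 to 0.25).

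Of 13 enzymes of myelin lipids, 0 passed, with a median of -0.33 (range -0.68 to 0.08). Enpp2 (autotaxin), with the highest level, stood at 1157, 1357, 1169 and 1151 CPM (log2 fold change -0.19, edgeR adjusted p = 0.830). Without 3M-2, the 3-month side was 3M-1 alone. In that fit the lipid genes Cers2 (-0.91), Gal3st1 (-0.91), Fa2h (-0.69) and Ugt8a (-0.59) were lower at 6 months and Scd2 (0.63) was higher. Without 3M-1, Ugt8a was at -0.76. These genes were chosen after their values were seen. With all 4 libraries every lipid enzyme lay between -0.68 and 0.08, Cers2, Gal3st1 and Scd2 among them. Of 11 transcription factors of the lineage, 0 passed, with a median of -0.07. Zfp536, with the highest level, stood at 2639, 2011, 2410 and 2384 CPM (log2 fold change -0.04, edgeR adjusted p = 0.978).

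Of 14 genes linked to reactive or late oligodendrocytes, 2 were higher at 6 months and 0 lower, with a median of 0.58. C4b, a complement component, rose from 30.6 and 22.6 CPM to 268 and 352 CPM (log2 fold change 3.42, SE 0.228, edgeR adjusted p = 6.10e-05). Its log2 fold change was 3.18 to 3.73 in the 15 alternatives run on all oligodendrocytes. Serpina3n, a protease inhibitor, stood at 2.10 and 0.708 CPM at 3 months and at 13.2 and 24.5 CPM at 6 months (log2 fold change 3.44, edgeR adjusted p = 0.0472). It passed the filter on low counts through its 6-month libraries alone, so its place among the genes called higher is partly set by the filter. Its call was lost with RLE size factors (adjusted p = 0.0582), with a stricter or looser gate, with clusters, with doublets left out and with mixed nuclei kept (adjusted p = 0.124).

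Outside oligodendrocytes the members were found at low levels in every class. Their summed level was 105, 112, 108 and 139.6 CPM in excitatory neurons, 49.4, 57.3, 82.9 and 206 CPM in inhibitory neurons, 103, 169, 108 and 266 CPM in astrocytes, 205, 286, 406 and 465 CPM in microglia and 369, 497, 672 and 711 CPM in OPCs. In the nuclei set aside as mixed or low in markers it was 242, 275, 468 and 484 CPM. OPCs were highest in every library and microglia next, and the ranges of these classes overlapped across libraries, as did those of neurons and astrocytes. As the libraries are droplet data, part of such UMIs can be free RNA. How much of the level in each class is such background was not measured.

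All 9 genes were higher in oligodendrocytes than in each of the 5 other classes (edgeR, mouse as a block), a direction in which 34.2% of genes passed against excitatory neurons, 34.8% against inhibitory neurons, 19.6% against astrocytes, 28.1% against microglia and 26.5% against OPCs. Against excitatory neurons the log2 fold changes were 8.87 (SE 0.283) for St18, 8.58 (SE 0.248) for Mag, 8.57 (SE 0.203) for Mog, 8.06 for Cldn11, 8.05 for Opalin, 7.93 for Mobp and 7.68 for Myrf. Mbp at 5.80 (SE 0.155) and Cnp at 4.51 (SE 0.0996) stood apart with smaller differences. The median was 8.05 over the members and -0.05 over all genes. All 9 passed under every alternative run for these 5 comparisons.

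Mog showed the pattern of most members. It stood at 1.84, 2.26, 2.91 and 3.28 CPM in excitatory neurons, at 4.54, 2.20, 4.27 and 5.18 CPM in inhibitory neurons and at 7.57, 7.65, 10.1 and 10.6 CPM in OPCs. Of the classes other than oligodendrocytes, microglia held the highest level of Mog, at 16.3, 21.4, 19.9 and 24.0 CPM. On average over the libraries, the level of Mog in excitatory neurons was 0.249% of that in oligodendrocytes, and the same share was 0.210% for St18, 0.255% for Mag, 0.349% for Opalin, 0.361% for Cldn11, 0.389% for Mobp and 0.458% for Myrf. In astrocytes Opalin and Myrf had 0 UMIs in all 4 libraries, so they were at least 72.4-fold and 43.1-fold higher in oligodendrocytes, taking 3 counts over the group as the floor.

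In excitatory neurons, Mbp and Cnp kept more of their oligodendrocyte level than the other members did. This did not hold for Mbp in every class: in microglia its mean share, 2.51%, was below that of Mag, 3.93%. Mbp stood at 84.1, 78.7, 70.5 and 94.8 CPM in excitatory neurons, a mean of 1.68% of its level in oligodendrocytes. Cnp stood at 7.999, 14.5, 12.5 and 12.5 CPM there, a mean of 4.06%. In all 4 libraries both shares were above that of each of the other 7 members in excitatory neurons.

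**Figure D2:**
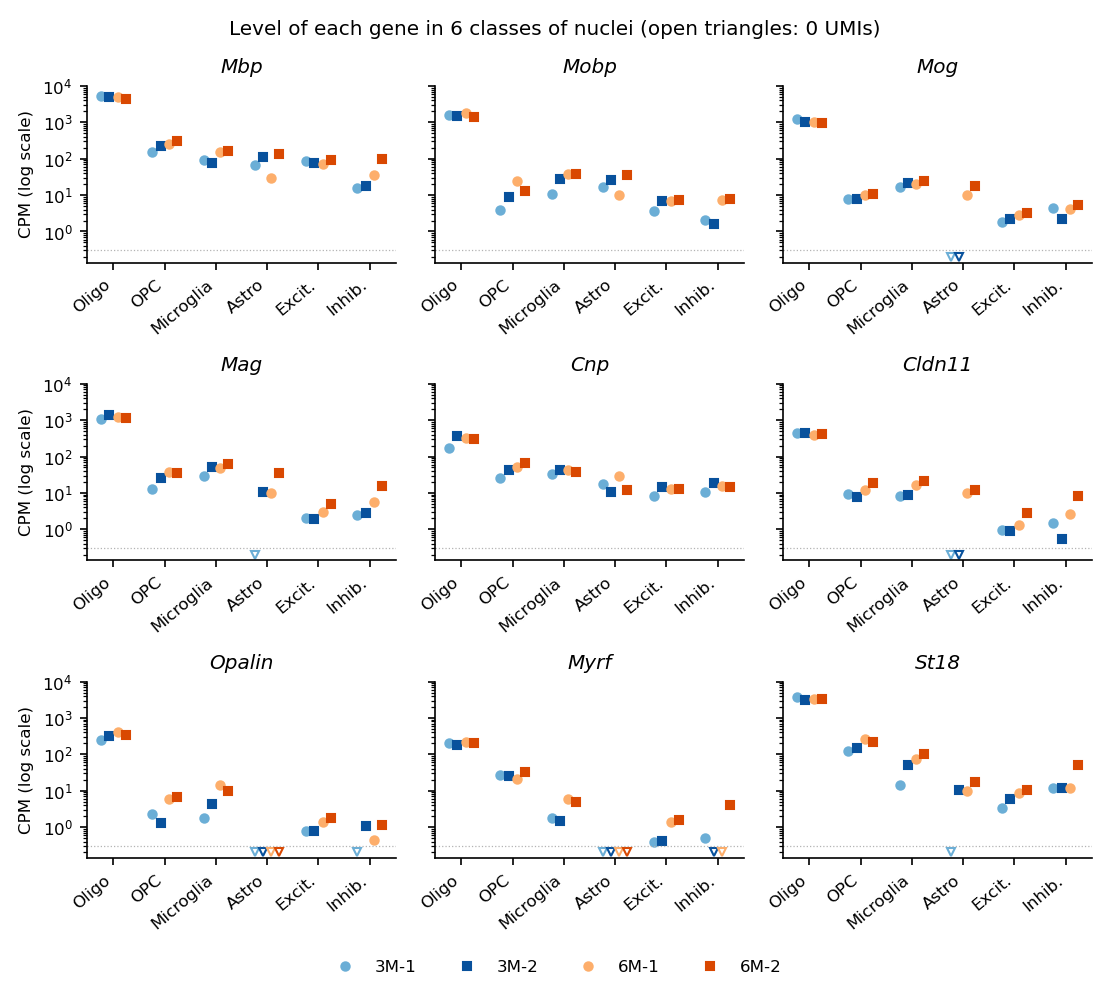
Level of each of the 9 genes in 6 classes of nuclei, in CPM on a log axis, with 1 point per library and an open triangle at the lower edge for 0 UMIs. Oligodendrocytes are highest for every gene; Mbp and Cnp are higher in excitatory neurons than the other genes relative to oligodendrocytes, and Myrf and St18 are higher in OPCs than in microglia.

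The make-up of the members' UMIs differed between classes. In oligodendrocytes, Mbp took 36.7% ± 1.20 of the UMIs of the 9 genes, St18 25.3% ± 1.51, Mog 7.89% ± 0.673 and Cnp 2.23% ± 0.666 (mean ± SD, n = 4 libraries). In excitatory neurons, Mbp took 70.8% ± 6.53, Cnp 10.3% ± 2.43, St18 5.93% ± 2.17 and Mog 2.20% ± 0.406. The ranges of these 4 genes did not overlap between the 2 classes. In microglia, Mbp took 36.0% ± 6.67, about its share in oligodendrocytes, whereas Cnp took 12.2% ± 3.64.

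**Figure D3:**
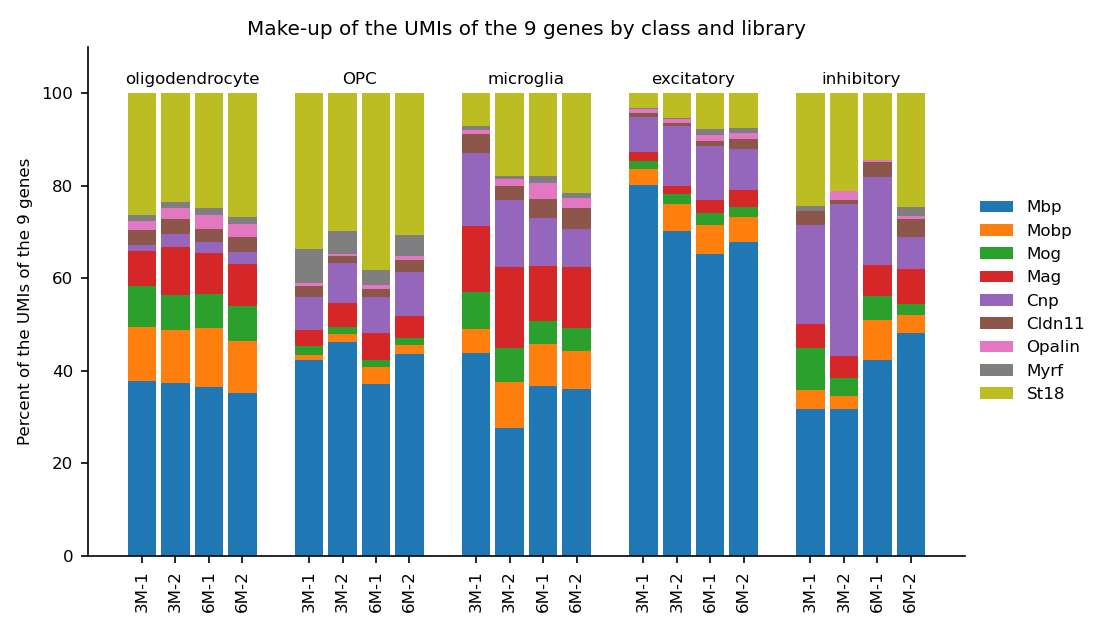
Share of each gene in the UMIs of the 9 genes, in percent, with 1 stacked bar per library in each class. Mbp fills 65.1% to 80.1% of the bar in excitatory neurons against 35.1% to 37.9% in oligodendrocytes, and St18 and Myrf are larger in OPCs than in excitatory neurons.

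Ratios to Mog were used to compare classes within a library. The ratio of Cnp to Mog was higher than in oligodendrocytes of the same library by 4.08 on the log2 scale in excitatory neurons, 3.72 in inhibitory neurons, 2.78 in microglia and 4.13 in OPCs, in 4 of 4 libraries each. The ratio of Mbp to Mog was higher by 2.79 ± 0.467 (SD) in excitatory neurons and by 2.39 ± 0.178 in OPCs, in 4 of 4 libraries, but by 0.27 ± 0.484 in microglia, in 3 of 4. For St18 the ratio in excitatory neurons differed by -0.33, lower in 4 of 4 libraries. An exact sign-flip permutation test over 4 libraries cannot go below 0.125 (two-sided), which was reached wherever all 4 libraries pointed one way. Mog was thinly counted outside oligodendrocytes, with 264 UMIs in excitatory neurons, 32 in inhibitory neurons, 101 in microglia and 34 in OPCs over all libraries. The Mbp gene also holds the golli transcripts, known from neurons and immune cells, and counts per gene do not separate these from the transcripts of myelin.

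OPCs held the transcription factors at a higher fraction of the oligodendrocyte level than most of the myelin genes. Myrf stood at 27.3, 25.5, 21.1 and 31.9 CPM in OPCs, against 1.43 to 5.85 CPM in microglia and 0.383 to 1.58 CPM in excitatory neurons, and no library of OPCs overlapped these. St18 stood at 124, 148, 258 and 218 CPM in OPCs, against 14.5, 51.4, 72.5 and 100.2 CPM in microglia. Relative to oligodendrocytes, OPCs held 15.9% of the level of Cnp, 13.2% of Myrf, 5.55% of St18 and 4.89% of Mbp. The log2 fold change of oligodendrocytes over OPCs was 2.82 (SE 0.152) for Cnp, 3.09 (SE 0.147) for Myrf, 4.38 (SE 0.191) for St18 and 4.56 (SE 0.194) for Mbp, and 5.34 to 7.18 for the other 5 members. Within the libraries, the ratio of Myrf to Mog was higher in OPCs than in oligodendrocytes by 3.90 ± 0.482 (SD) and that of St18 to Mog by 2.57 ± 0.211 on the log2 scale, each in 4 of 4.

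The oligodendrocyte markers were also found in OPCs. Of the 16 markers, 15 had a UMI at 3 months and 14 at 6 months, Tmem125 was at 0 in all libraries, and their sum ranged from 243 to 298 CPM at 3 months and from 294 to 302 CPM at 6 months. Leaving out the OPCs with 2 or more of them, 24 to 70 nuclei in a library, the log2 fold change of oligodendrocytes over OPCs was 3.56 for Myrf and 3.21 for Cnp, but 5.90 for St18 and 6.22 for Mbp.

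The wider lists divided OPCs from oligodendrocytes as well. Of 16 sheath genes, 13 were higher in oligodendrocytes than in OPCs and 0 lower (median 1.55), led by Mal (5.61), Cntn2 (5.23), Gpr37 (5.12) and Tspan2 (4.15). Of 13 lipid enzymes 11 were higher and 0 lower (median 2.01), led by Aspa (7.90), which cleaves N-acetylaspartate, Fa2h (2.68), Elovl7 (2.60) and Ugt8a (2.49); these 4 also served as gate markers. The transcription factors split: 4 of 11 were higher in oligodendrocytes, namely Nkx6-2 (5.68), Zfp536 (3.42), Zeb2 (1.66) and Yy1 (0.58), and 4 were lower, namely Tcf7l2 (-1.72), Olig2 (-1.42), Nkx2-2 (-1.23) and Sox10 (-0.29), with a median of -0.11. Of the reactive and late genes 9 of 12 tested were higher, led by Anln (7.06, also a gate marker), Il33 (6.70), Car2 (6.23) and Trf (6.14). The median over all genes was 0.03. Among all 11363 genes tested, 3007 (26.5%) were higher and 3261 lower.

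Against excitatory neurons, 16 of 16 sheath genes were higher in oligodendrocytes (median 5.55; Bcas1 8.74, Gjc3 8.64, Tspan2 7.79). Of the lipid enzymes 11 of 13 were higher (median 3.61; Fa2h 8.92, Aspa 8.86, Ugt8a 7.10, Gal3st1 5.45) and 1 was lower. Fa2h, Aspa, Ugt8a and Elovl7 of this list also served as gate markers, so their difference is partly set by the gate. Of the transcription factors 11 of 11 were higher (Sox10 8.58, Nkx2-2 7.32, Zfp488 7.30, Tcf7l2 7.08), and of the reactive and late genes 13 of 14 were. The last list holds the gate marker Anln. Among all 16553 genes tested, 5667 (34.2%) were higher and 6382 lower.

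The level of the members in the other classes was next compared between ages. Over the 6 classes, oligodendrocytes included, 6M-2 was the highest library in 5 for Mbp, Mog and Cldn11. It was so in 4 for Mag and St18, in 3 for Mobp, Opalin and Myrf and in 1 for Cnp. The part of this library in the differences between ages was not tested. In excitatory neurons, Myrf stood at 0.383 and 0.411 CPM at 3 months (10 and 12 UMIs) and at 1.35 and 1.58 CPM at 6 months (33 and 38 UMIs). St18 stood at 3.29 and 5.92 CPM at 3 months and at 8.40 and 10.5 CPM at 6 months. In all, 7 of the 9 members were higher in both 6-month libraries of excitatory neurons, as were 18.8% of the genes tested. None was lower in both, as were 16.8%, and Mbp and Cnp overlapped.

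No member passed the test between ages in excitatory neurons, and no gene did by edgeR (0 of 18061, 0%), where DESeq2 called 32 genes and 0 members. At an unadjusted p under 0.05, edgeR had 5 of 9 members higher, where 3.49% of all genes were, and 954 genes in either direction. Myrf, among these 5, needed its libraries of the later age to pass the filter on low counts. Its place there is thus partly set by the filter. The log2 fold changes were 1.86 (SE 0.403, edgeR adjusted p = 0.731) for Myrf, 1.12 for Cldn11, 1.03 for St18, 1.02 for Mag, 1.02 for Opalin, 0.58 for Mog, 0.46 for Mobp, 0.15 for Cnp and 0.01 for Mbp. The members' median was 1.02 and that of all genes 0.00. With the batch number as a block, 4 genes and 0 members passed. Without 3M-2, St18 was at 1.45, Myrf at 1.84 and Mobp at 0.89. Leaving out 1 library at a time, St18 ranged from 0.71 to 1.45, Myrf from 1.71 to 1.97 and Mobp from 0.12 to 0.89.

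The oligodendrocyte markers were measured in excitatory neurons too. All 16 had a UMI at both ages, and their sum was 24.5 and 27.3 CPM at 3 months and 36.2 and 35.8 CPM at 6 months. Leaving out the excitatory neurons with 2 or more of these markers, which were 1.60% to 2.61% of them at 3 months and 4.59% to 4.80% at 6 months, gave log2 fold changes of 1.93 for Myrf, 1.18 for Cldn11, 1.15 for St18, 1.04 for Opalin and 0.89 for Mag, close to those with all nuclei.

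In microglia, 6 of the 9 members were higher in both 6-month libraries, as were 20.7% of the genes tested, and 0 were lower in both, as were 18.2%. Myrf, among these 6, was too low to be tested. Mbp stood at 89.8 and 78.5 CPM at 3 months and at 148 and 168 CPM at 6 months. Opalin rested on 2 and 3 UMIs at 3 months and on 25 and 14 UMIs at 6 months. Mog, at 16.3 and 21.4 CPM and then 19.9 and 24.0 CPM, overlapped between ages, as did Mag and Cnp.

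In the test, 0 of 11905 genes (0%) passed by edgeR in microglia and DESeq2 called 13 genes and 0 members. At an unadjusted p under 0.05, edgeR had 5 of the 8 members tested higher, where 5.48% of all genes tested were, and 1078 genes in either direction. Opalin, among these 5, passed the filter on low counts through its 6-month libraries alone, so its place there is partly set by the filter. The log2 fold changes were 2.08 for Opalin (edgeR adjusted p = 0.387), 1.48 for St18 (edgeR adjusted p = 0.406), 1.16 for Cldn11, 1.00 for Mobp and 0.88 for Mbp (edgeR adjusted p = 0.298), and 0.50, 0.22 and 0.11 for Mag, Mog and Cnp. Leaving out 1 library at a time, St18 ranged from 0.74 to 2.52, Mobp from 0.39 to 1.74 and Mbp from 0.78 to 1.01. With the batch number as a block, 3 genes and 0 members passed.

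Of the oligodendrocyte markers, 15 of 16 had a UMI in microglia at 3 months and 16 at 6 months. Their sum was 99.8 and 136 CPM at 3 months and 169.5 and 214 CPM at 6 months. Leaving out microglia with 2 or more of them, 5 nuclei in each 3-month library and 22 and 28 in the 6-month libraries, brought St18 to a log2 fold change of 0.02 and Mag to -0.03, with Mbp at 0.47, Cldn11 at 1.01 and Mobp at 1.42. These nuclei were picked for their oligodendrocyte markers.

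In OPCs, 8 of the 9 members were higher in both 6-month libraries, as were 15.8% of the genes tested, and 0 were lower in both, as were 17.2%. Mog and Opalin, among these 8, were too low to be tested. St18 stood at 124 and 148 CPM at 3 months and at 258 and 218 CPM at 6 months, and Mbp at 156 and 229 CPM and then at 249 and 310.02 CPM. Myrf overlapped.

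By edgeR 0 of 10329 genes (0%) passed in OPCs, and by DESeq2 0 genes. At an unadjusted p under 0.05, 5 of the 7 members tested were higher, where 2.3% of all genes tested were, and 433 genes passed in either direction. Mobp, among these 5 (means 6.36 and 19.2 CPM at 3 and 6 months), passed the filter on low counts through its 6-month libraries alone. So did Cldn11, which was tested and was not among them. The log2 fold changes were 1.75 for Mobp, 1.02 for Mag, 0.84 for Cnp, 0.83 for St18 (edgeR adjusted p = 0.930), 0.83 for Cldn11, 0.56 for Mbp and -0.01 for Myrf. With the batch number as a block, 10 genes and 0 members passed. Leaving out OPCs with 2 or more oligodendrocyte markers, St18 was at -0.07, Mbp at -0.30, Cnp at 0.52 and Myrf at -0.64 on the log2 scale.

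In inhibitory neurons, 4 of the 9 members were higher in both 6-month libraries, as were 16.5% of the genes tested, and 0 were lower in both, as were 17.6%. Cldn11, among these 4, was too low to be tested. Mbp stood at 15.6 and 18.2 CPM at 3 months and at 35.0 and 98.9 CPM at 6 months, and St18 at 12.1, 12.1, 12.0 and 50.6 CPM. Library 6M-2 was thus far above the others for both genes.

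By edgeR 0 of 11963 genes (0%) passed in inhibitory neurons, and by DESeq2 0 genes. At an unadjusted p under 0.05, edgeR had 4 of the 5 members tested higher, where 2.96% of all genes tested were, and 609 genes in either direction. The log2 fold changes were 2.01 for Mobp, 1.96 for Mbp (edgeR adjusted p = 0.702), 1.92 for Mag, 1.32 for St18 and 0.06 for Cnp. Mobp (means 1.83 and 7.66 CPM at 3 and 6 months) and Mag (2.64 and 10.5 CPM) passed the filter on low counts through their 6-month libraries alone. Their place among the members tested as higher is thus partly set by the filter. Mbp and St18 were at 2.02 and 1.26 without 3M-2, at 1.85 and 1.31 without 3M-1 and at 2.56 and 2.07 without 6M-1. Without 6M-2, Mbp was at 1.05 and St18 at -0.02. The oligodendrocyte markers in inhibitory neurons, 14 of 16 at each age with Tmem125 at 0 throughout, summed to 46.9 and 33.0 CPM at 3 months and to 49.6 and 89.2 CPM at 6 months. Leaving out the inhibitory neurons with 2 or more of them, 6 to 19 in a library, brought Mbp to 0.62 and St18 to -0.13 on the log2 scale.

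Astrocytes allowed little, with 34 to 73 nuclei in a library. Mbp, the only member tested there, rested on 12, 21, 3 and 23 UMIs (log2 fold change -0.01, edgeR adjusted p = 0.997). Of the 9 members, 2 were higher in both 6-month libraries, as were 19.8% of the genes tested, and 0 lower in both, as were 14.9%. The 2 were Mog and Cldn11, which were too low to be tested and rested on 4 and 3 UMIs over all libraries. By edgeR 0 of 3596 genes (0%) passed, with 162 at an unadjusted p under 0.05, and DESeq2 called 1 gene. With the batch number as a block 1 gene and 0 members passed. Leaving out 1 library at a time, Mbp ranged from -1.63 to 0.56. The oligodendrocyte markers with a UMI in astrocytes were 7 of 16 at 3 months and 10 at 6 months, summing to 68.6 and 21.1 CPM and then to 108 and 165 CPM, with Ermn, Fa2h, Galnt6, Hapln2 and Tmem125 among those at 0 in all. Leaving out the 0 to 3 astrocytes of a library with 2 or more of them, Mbp was at -0.86 on the log2 scale and did not pass.

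**Figure D4:**
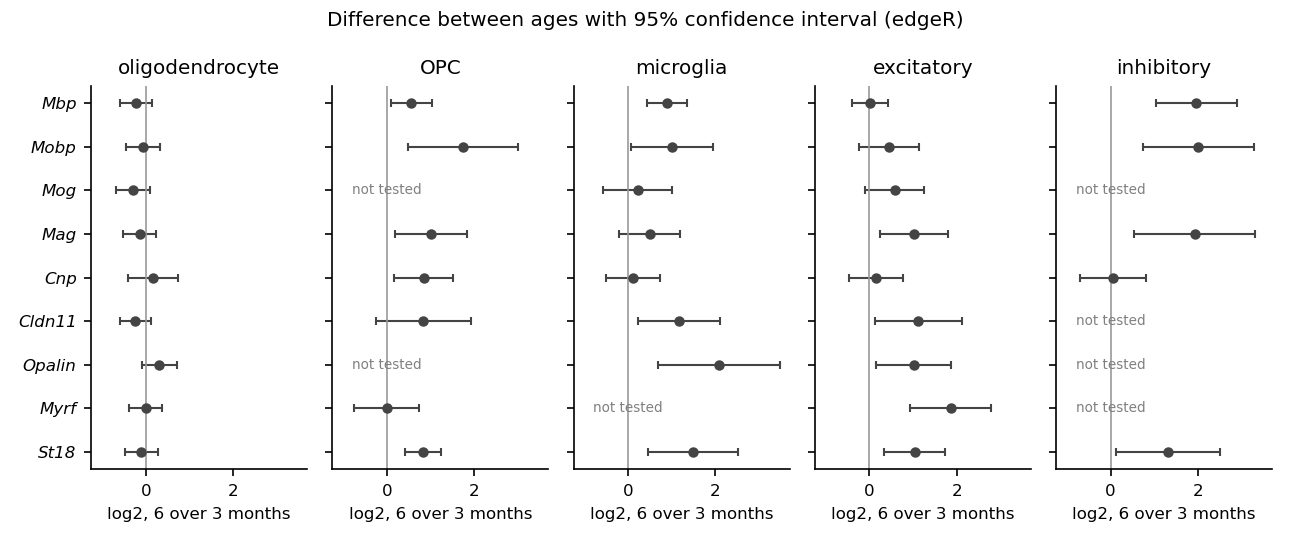
Log2 fold change between 6 and 3 months with its 95% confidence interval (edgeR) for each gene tested, with 1 panel for each of 5 classes of nuclei and a line at 0. In oligodendrocytes the 9 genes lie between -0.30 and 0.30; in excitatory neurons, microglia and OPCs most lie above 0 with wide intervals, Myrf at 1.86 in excitatory neurons.

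The difference between ages in oligodendrocytes was tested against that in excitatory neurons in 1 fit (interaction of age and class, edgeR, 17780 genes). Of the 9 members 1 passed, where 79 genes did (0.444%). This was Myrf, which differed by -1.80 on the log2 scale (SE 0.334, 95% interval -2.49 to -1.11, edgeR adjusted p = 0.00883): its level was 207, 184, 214 and 199 CPM in oligodendrocytes and 0.383, 0.411, 1.35 and 1.58 CPM in excitatory neurons. The values for Cldn11 (-1.29, edgeR adjusted p = 0.0635), Mag (-1.10, edgeR adjusted p = 0.0637), St18 (-1.07, edgeR adjusted p = 0.0635) and Mog (-0.82, edgeR adjusted p = 0.194) did not pass, and Opalin, Mobp, Mbp and Cnp were at -0.68, -0.49, -0.17 and 0.07. At an unadjusted p under 0.05, the difference between ages was lower in oligodendrocytes than in excitatory neurons for 6 members. The same held for 2.53% of all genes, and the difference was higher for 0 members.

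Leaving out 1 library at a time, Myrf ranged from -1.59 to -1.98, Cldn11 from -1.70 to -0.71, St18 from -1.69 to -0.58 and Mag from -1.49 to -0.62. Such a fit has 1 library at an age, so only effect sizes are given here. With inhibitory neurons in place of excitatory neurons, Mbp passed with -2.14 (edgeR adjusted p = 2.00e-04). With astrocytes, microglia or OPCs, 0 members passed among 11, 0 and 8 genes, and Myrf was at -0.02 with OPCs. Myrf was too low to be tested between ages in inhibitory neurons, astrocytes or microglia alone, so its values in those fits are not given. These fits share the oligodendrocyte sums.

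The share of nuclei with at least 1 UMI of each gene was compared after every nucleus had been thinned to 1000 UMIs. In oligodendrocytes the mean shares at 3 and 6 months were 98.5% and 98.2% for Mbp, 91.4% and 91.0% for St18, 73.8% and 74.1% for Mobp and 69.3% and 67.1% for Mag. Mog was found in 64.6% and 60.1%, Cldn11 in 32.9% and 31.9%, Opalin in 23.3% and 28.1%, Cnp in 22.5% and 25.6% and Myrf in 17.5% and 17.2%. The ages overlapped for 8 of the members, and Mog, at 68.3%, 60.9%, 59.9% and 60.3%, differed by -4.54 percentage points (exact permutation p = 0.333, two-sided, which cannot be lower). The high value of Mog was that of 3M-1, the other 3 libraries lay close together, and the difference was -0.668 points without thinning. Every thinned oligodendrocyte held a UMI of at least 1 member; 7 to 113 nuclei of a library were too shallow and were left out.

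In the other classes, the thinned share with any member was 10.0%, 10.5%, 9.64% and 13.7% in excitatory neurons and 13.9%, 17.7%, 19.4% and 20.9% in microglia. It was 16.5%, 21.0%, 17.6% and 21.2% in OPCs, 4.38%, 7.77%, 9.74% and 10.3% in inhibitory neurons and 4.88%, 13.9%, 5.88% and 4.55% in astrocytes. Unthinned, the shares were 49.8% to 64.7% in excitatory neurons, at median depths of 7069 to 10612.5 UMIs, and 24.5% to 38.4% in microglia, at 1503.5 to 2248 UMIs. Microglia and inhibitory neurons were higher in both 6-month libraries, by 4.39 and 3.93 percentage points, and the exact permutation p was 0.333 or above in every class. Another random thinning moved the difference from 0.677 to 5.06 points in OPCs and from -4.17 to 0.210 points in astrocytes.

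Oligodendrocytes were also split by C4b, since C4b differed with age. A UMI of C4b was found in 7.002%, 3.39%, 34.3% and 43.3% of oligodendrocytes. The median depth was 2803, 1737.5, 2078 and 2575 UMIs with C4b and 2838, 1668, 1980 and 2209.5 UMIs without it. Cldn11 stood at 576, 519, 439 and 480.02 CPM in nuclei with C4b and at 447, 428, 352 and 362 CPM in those without, higher with C4b in 4 of 4 libraries.

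With the mouse as a block, 1 of the 9 members passed the test between nuclei with and without C4b, where 35 of 10100 genes did (0.347%). Cldn11 was higher with C4b by 0.34 on the log2 scale (SE 0.0866, edgeR adjusted p = 0.0247). The other 8 members lay between -0.10 (Mbp) and 0.13 (Myrf). The call of Cldn11 was lost without 3M-1 (0.33), without 6M-1 (0.33), without 6M-2 (0.29), with nuclei of at least 2000 UMIs alone (0.31) and without the block (0.28), with the same sign each time. It held without 3M-2 (0.36). Of the reactive and late genes 3 of 11 tested were higher with C4b, namely Il33 (0.47), Trf (0.41) and Apod (0.37), and of the sheath, lipid and transcription factor lists 0 passed.

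Outside the members, the genes with the most similar pattern over the 24 sums of class and library were Slc13a1 (Pearson r = 0.974 with the mean of the 9 members, log2 scale), Ermn (0.973), Insc (0.970), Gm48370 (0.968) and Sec14l5 (0.961), out of 13004 genes considered; Ermn and Sec14l5 were gate markers. The members' own values ranged from 0.932 to 0.979. The points share libraries and differ in depth, and oligodendrocytes stand far above the other classes in all of them. Insc stood at 133 to 169 CPM in oligodendrocytes and at 0.0765 to 0.492 CPM in excitatory neurons.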

How the data were processed

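Nuclei of dissected cortex had been stained with DAPI, sorted as singlets and profiled with 10x 3' chemistry. The deposited values are UMI counts without normalization, which the authors made with Cell Ranger 7.0.0 (per the file headers) on mm10 (submitters' notes); whether counting used strand was not given in the sources used here. Nuclei with at most 7000 genes and at most 1% mitochondrial UMIs were kept, as in the study. A nucleus joined the class with the largest share of its marker list detected, given at least 3 markers and a second-best share of at most 0.5 of the first. Scrublet calls were left in and were removed as an alternative.

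Counts were summed per library and class (at least 10 nuclei) and tested in R 4.3.3 with edgeR 4.0.16 (quasi-likelihood, TMM, filterByExpr, Benjamini-Hochberg, threshold 0.05), with DESeq2 1.42.0 as an alternative. Sums were divided by the UMIs of the class (CPM). Comparisons of classes had the mouse as a block. Ratios to Mog had 0.5 counts added. Clustering used scanpy 1.11.5. The scripts were tested on simulated data. With 1 mouse per library and 2 libraries per age, p-values rest on few animals.

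Libraries with the same replicate number were given the same batch number here, and the block pairs them by it. Whether they were processed together is not stated in the titles. The correlation of same-numbered libraries' deviations from their age means was -0.0212 in oligodendrocytes and -0.153 to -0.017 in the other classes.

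The members and lists were chosen with earlier results of these data known. The genes named are the 9 members in every result, up to 4 list genes past the threshold with the largest change in each direction (or the one with the highest level where none passed), the 5 genes most similar to the members' mean among those with at least 500 UMIs, C4b, Gclc and leading markers; some genes that this rule names are not reported here. Gene positions came from GENCODE M21, which matched 32235 of 32285 gene IDs.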

Additional observations from a re-analysis of the deposited data

Results flagged for a closer look

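The difference between ages of Myrf, the transcription factor required for myelin gene expression, was not the same in oligodendrocytes and in excitatory neurons: it was lower in oligodendrocytes by -1.80 on the log2 scale in the interaction test (edgeR adjusted p = 0.00883). In oligodendrocytes its level differed by -0.01 between ages. In excitatory neurons it rested on 10 and 12 UMIs at 3 months and on 33 and 38 UMIs at 6 months, and all 16 oligodendrocyte markers had UMIs there too, with sums of 24.5 to 27.3 CPM at 3 months and 35.8 to 36.2 CPM at 6 months. Without the excitatory neurons that held 2 or more of these markers, the difference of Myrf between ages in excitatory neurons was 1.93, against 1.86 with all of them. In the test within all excitatory neurons, Myrf needed its 6-month libraries to pass the filter on low counts. There its difference between ages did not pass (edgeR adjusted p = 0.731). With astrocytes, microglia or OPCs in place of excitatory neurons in the interaction, 0 members passed.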

How the results depend on the processing

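Each age had 2 libraries, so the exact tests could not pass 0.05, and members outside oligodendrocytes rested on few UMIs. All 9 members were called higher in oligodendrocytes than in each other class under every alternative run. Of the values for single genes, 734 kept direction and side of the threshold, 23 passed it newly, 9 lost it and 47 turned sign. The cause of the changes below was not tested.

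The number of genes called between ages in oligodendrocytes, 27, was 4 with RLE size factors, 145 with no filter, 2 with a stricter gate, 3 with a looser gate, 2 with clusters, 1 with mixed nuclei kept and 6 without Scrublet doublets; Myrf turned to 0.0086 with the stricter gate. In nuclei without C4b, an alternative chosen after seeing the data, it was 1. With the block that pairs the libraries by replicate number, 53 genes were called between ages in oligodendrocytes (Myrf 8.2e-04) and 4 in excitatory neurons (Mbp -0.0048). It called 1 gene in astrocytes, 3 in microglia and 10 in OPCs, and 0 members. DESeq2, added after seeing the data for the other classes, called 32 genes in excitatory neurons (Mbp -0.0025), 1 in astrocytes and 13 in microglia, with Myrf at 0.0016 in OPCs.

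Without nuclei of 2 or more oligodendrocyte markers, Mbp was at -0.041 in excitatory neurons and -0.30 in OPCs, St18 at -0.13 in inhibitory neurons and -0.067 in OPCs, Cnp at -0.022 in inhibitory neurons and -0.093 in microglia, and Mag at -0.027 in microglia. Without Scrublet doublets, Mbp was at -0.036 in excitatory neurons and 0.072 in astrocytes, St18 at -0.21 and Cnp at -0.071 in inhibitory neurons, Cnp at -0.058 in microglia, and 5 genes were called in microglia. With other classes in the interaction (added after seeing the data), 11 genes (astrocytes), 0 (microglia) and 8 (OPCs) were called, with 0 members in each; Cnp was at -0.25 with astrocytes and -0.62 with OPCs, and Opalin, which had 0 UMIs in astrocytes, at 0.26 with them, a value that rests on oligodendrocytes alone. In the C4b split, 23 genes were called at 2000 UMIs or more and 0 with no replicate block, 0 members in both, with Mag at -0.019 and -0.093.

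The difference in the share of nuclei with any member was 6.27 (excitatory), 9.95 (inhibitory), 5.22 (astrocytes), 9.18 (microglia) and 6.07 (OPCs) points unthinned. At 500 UMIs it was -0.0025 (oligodendrocytes), 0.939 (astrocytes), 1.40 (microglia) and -0.211 (OPCs), and with another seed 0.210 (astrocytes) and 5.06 (OPCs).

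Leaving out 1 library at a time, the genes called ranged from 29 to 612 in oligodendrocytes (members 0 to 2), 0 to 1775 in excitatory neurons (0 to 3), 0 to 733 in inhibitory neurons (0 to 2), 3 to 32 in astrocytes, 13 to 892 in microglia (0 to 3) and 0 to 39 in OPCs. They ranged from 81 to 213 in the interaction (members 1 to 5) and from 6 to 36 in the C4b split (0 to 1). Apart from the C4b split, these counts come from fits with 1 library at an age. They show how far the calls move, and no conclusion is drawn from them. The counts of members have no share over all genes beside them, so no enrichment is read from them. The share of oligodendrocytes differed by 4.34 to 7.55 points. In oligodendrocytes Cnp ranged from -0.26 to 0.71, Mag from -0.30 to 0.0049, Mobp from -0.25 to 0.098, Myrf from -0.15 to 0.13 and St18 from -0.27 to 0.053. Elsewhere Cnp ranged from -0.18 to 0.57 and Mbp from -0.26 to 0.21 (excitatory), Cnp from -0.28 to 0.49 and St18 from -0.021 to 2.07 (inhibitory), Mbp from -1.63 to 0.56 (astrocytes), Cnp from -0.055 to 0.25 (microglia) and Myrf from -0.30 to 0.27 (OPCs). In the interaction Cnp ranged from -0.0069 to 0.16 and Mbp from -0.50 to 0.17, and in the C4b split Mag from -0.13 to 0.056, Mobp from -0.10 to 0.050, Myrf from -0.037 to 0.17 and St18 from -0.077 to 0.0011.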
